A study of Mus musculus with 36 samples.

Results

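Mouse embryonic gut at stage E14.5 was compared between libraries that lacked Ret RNA and wild-type libraries. The libraries lacking Ret RNA were those labelled Ret null at E14.5 whose own Ret value was under 1 FPKM (fragments scaled to transcript length and library size), and the others were all E14.5 libraries labelled wild type. This gave 3 libraries lacking Ret RNA (female 2, male 2 and male 3) and 6 wild-type libraries (females 1 to 3 and males 1 to 3), 9 of the 36 libraries of the series. Per the labels, all came from dissected guts of C57BL/6J embryos, and the series title describes the null embryos as homozygous. The sources used here do not describe the targeted allele, nor whether a library came from 1 embryo or several. All p-values below therefore measure the spread between these libraries, which may be technical. Another 3 E14.5 libraries labelled Ret null (female 1, female 3 and male 1) held Ret RNA. These are called the Ret-holding null-labelled libraries here, and the 3 libraries under the limit the Ret-lacking libraries. The Ret-holding null-labelled libraries are given beside the comparison, outside its test. Their Ret values lay inside the wild-type range, so the check of the targeted gene goes against their label. Their genotype is therefore uncertain, and so is what the comparison of all 6 null-labelled with 6 wild-type libraries, called as labelled below, measures.

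Ret is a receptor tyrosine kinase. With the co-receptor GFRA1 it binds GDNF, a ligand made by gut mesenchyme, and it carries the survival, division and migration signals of the neural crest cells that enter the gut and form the enteric nervous system. Loss of Ret in mice leaves the bowel below the stomach without enteric neurons, and RET is the main human gene of Hirschsprung disease, in which the distal bowel lacks ganglia. By this stage in wild-type mice crest cells have colonised the gut and many have begun to differentiate as neurons.

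Ret RNA was 0.0587, 0.0221 and 0.0111 FPKM in the Ret-lacking libraries, 6.49, 5.76 and 6.03 FPKM in the Ret-holding null-labelled libraries, and 4.70 to 11.5 FPKM (median 8.77) in wild type. Values of the Ret-lacking libraries are in the order female 2, male 2 and male 3 throughout, and those of the Ret-holding null-labelled libraries in the order female 1, female 3 and male 1. The highest library inside the 1 FPKM limit held 0.0587 FPKM and the lowest null-labelled library outside it held 5.76 FPKM. These values chose the libraries and receive no test. The choice bears on every gene of the cells that express Ret, because a library picked for having no Ret RNA is also one picked for holding few such cells or little of their RNA. The fold changes of enteric neuron and crest genes below are thus not independent of the choice, and the comparison of all 6 null-labelled with all 6 wild-type libraries, which uses the labels alone, is given beside them. In bulk gut RNA, fewer cells of a type and less RNA per cell cannot be told apart.

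Markers of the gut tissues that define the sample were present in both groups. Epcam, an epithelial adhesion protein, was 105, 137 and 138 FPKM in the Ret-lacking libraries and 107 to 206 FPKM (median 123) in wild type, and Acta2, smooth muscle actin, was 299.8, 379.7 and 385 FPKM in the Ret-lacking libraries and 233 to 498 FPKM (median 385) in wild type. None of 29 epithelial identity and junction genes tested and none of 16 collagen genes tested passed the test at an adjusted p under 0.05. At an unadjusted p under 0.05, 4 of the epithelial genes and 0 of the collagen genes did, as did 4598 of all 13729 genes tested. Total FPKM per library was 404022 to 407579 in the Ret-lacking libraries and 448521 to 491231 in wild type, and the authors' intervals imply 6170000 to 7440000 fragments in the Ret-lacking libraries and 4860000 to 6760000 in wild type. Neighbouring tissue varied most among wild-type libraries. Summed over 16 liver genes the Ret-lacking libraries held 79.8 to 160.8 FPKM, against 3503 FPKM in wild-type female 1. Barx1, a stomach transcription factor, was 43.3 to 51.0 FPKM in the Ret-lacking libraries and 0.0858 FPKM in that wild type. Over 16 heart and striated muscle genes the Ret-lacking libraries held 28.4 to 100.1 FPKM, against 2691 FPKM in wild-type male 2, which also had the lowest neuron and crest sum of the wild types. Over 27 pancreatic acinar genes they held 212 to 457 FPKM, against 3632 FPKM in wild-type female 2. Males 2 and 3 lacking Ret RNA differed from each other by 1.05 times the counting noise, with 1.59% of genes beyond 3 SD, against 1.74 to 2.29 times in pairs of wild-type libraries of 1 sex. They met the first limit used here for 1 library deposited under different names (1.1 times) and missed the second (1%), so they were counted as 2 samples, and the results with their mean as 1 sample are given beside the main ones.

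**Figure D1:**
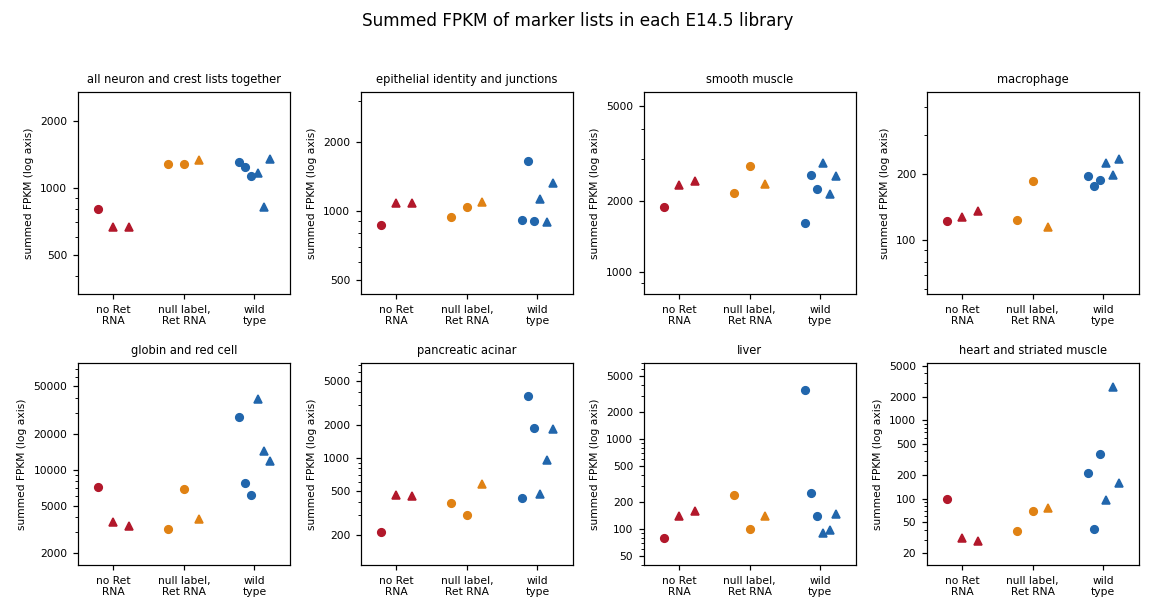
Summed FPKM of marker lists (log axis) in each E14.5 library, with libraries lacking Ret RNA on the left, Ret-holding null-labelled libraries in the middle and wild type on the right; circles are females and triangles males, and each point is 1 library. The neuron and crest sum was 663 to 799.7 FPKM in the Ret-lacking libraries and 822 to 1354 FPKM in wild type, while single wild-type libraries stood far out in the liver, heart and pancreas lists.

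Of 13729 genes tested with limma, 1025 were higher (7.47% of those tested) and 821 lower (5.98%) in the Ret-lacking libraries than in wild type, at a Benjamini-Hochberg adjusted p under 0.05. Fold changes are on the log2(FPKM + 1) scale, which understates the change of low genes, and the median over all tested genes was 0.04. The number of calls depended on which libraries entered the fit and how they were counted. With males 2 and 3 averaged 62 genes were higher and 183 lower, of 13679 tested. Without female 2, the one female lacking Ret RNA, 16 were higher and 87 lower, of 13647 tested. The number rested also on wild-type male 3, without which 294 were higher and 390 lower. Without wild-type male 2, 838 were higher and 812 lower. Leaving out wild-type female 3 raised the number, to 1391 higher and 903 lower. At an unadjusted p under 0.05, 4598 genes passed in the main fit, 3376 with males averaged, 2821 without female 2 and 5048 of 13861 as labelled. The balance of directions depended on scaling. After median-ratio rescaling 520 were higher and 1111 lower, and after rescaling to equal FPKM sums, which shifted the median of all genes by 0.20, to 0.23, 5605 were higher and 539 lower. Directions below are relative to the deposited scaling. Counts of list members under an alternative are to be read against the totals over all genes in that alternative.

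Over 10 lists of neuron, crest and axon genes together, 65 of the 133 members tested were lower and 3 higher (171 were listed, and 38 did not reach the level filter), with a median log2 fold change of -0.61 against 0.04 for all genes. The share of all genes called lower was 5.98%. Members under 1 FPKM in every Ret-lacking library entered the test only through wild type, where they were high. The counts of lower members, here and in each list below, are therefore a description only. When males 2 and 3 were averaged 33 of 133 were lower, where 183 of all 13679 genes were. Without female 2, 25 of 132 were lower, where 87 of all 13647 genes were. As labelled, with all 6 null-labelled libraries against 6 wild types, 7 of 137 were lower and 7 higher, where 5.29% of all 13861 genes tested were lower and 12.4% higher. The share called lower as labelled was thus near that of all genes. Summed over these lists the Ret-lacking libraries held 663 to 799.7 FPKM, the Ret-holding null-labelled libraries 1276 to 1334 FPKM and wild type 822 to 1354 FPKM.

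Promoter sequences from RefSeq (GRCm38.p6, the assembly of mm10) are shown for 2 of the genes that fell, the intermediate filament gene Prph and the neuropeptide gene Cartpt, and for Gdnf, the Ret ligand gene that rose. Each runs 5′ to 3′ over the 250 bases before the annotated start of transcription, and capitals mark the letters TATAA, found on either strand. The motif was chosen after the sequences were read. The table held no entry for Ret or Tlx2.
Prph, chr15:99054924-99055173, plus strand: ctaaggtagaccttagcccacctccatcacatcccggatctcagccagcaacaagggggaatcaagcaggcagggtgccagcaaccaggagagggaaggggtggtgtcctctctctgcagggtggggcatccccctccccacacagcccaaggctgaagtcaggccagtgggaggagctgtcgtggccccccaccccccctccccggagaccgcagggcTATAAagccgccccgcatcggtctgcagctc
Cartpt, chr13:99900684-99900933, minus strand: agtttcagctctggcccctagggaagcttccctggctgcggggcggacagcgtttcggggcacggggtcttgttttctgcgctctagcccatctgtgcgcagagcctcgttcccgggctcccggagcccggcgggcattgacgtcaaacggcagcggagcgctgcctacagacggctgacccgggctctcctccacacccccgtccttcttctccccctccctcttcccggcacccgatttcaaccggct
Gdnf (1 of 2 listed starts), chr15:7809798-7810047, plus strand: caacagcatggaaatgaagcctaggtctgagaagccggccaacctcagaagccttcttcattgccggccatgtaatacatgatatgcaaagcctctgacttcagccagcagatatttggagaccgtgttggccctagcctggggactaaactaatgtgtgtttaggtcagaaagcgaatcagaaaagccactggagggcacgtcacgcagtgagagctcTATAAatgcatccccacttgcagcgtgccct
TATAA began 31 bases before the start in both Prph and Gdnf, and these letters were not in the Cartpt window. TATAA stood on either strand in 22.8% of all 32851 promoters of this length. On the strand printed alone, 3.52% held it within 40 to 16 bases before the start. Counted in that second way, 2.82% of 779 promoters of genes called lower in the Ret-lacking libraries held it there. Among those of genes called higher 2.03% of 987 did. These matches are descriptions of sequence and say nothing of what binds there.

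Several transcription factors that specify enteric neurons were under 1 FPKM in every Ret-lacking library. Such genes reached the level filter (1 FPKM or more in at least 3 libraries) only through wild type. Their direction was thus largely fixed by the filter, and their p-values are a description only. Phox2a, a homeodomain factor of autonomic neurons, was 0.825, 0.276 and 0.397 FPKM in the Ret-lacking libraries, 6.78, 9.25 and 8.70 FPKM in the Ret-holding null-labelled libraries, and 3.57 to 8.88 FPKM (median 7.39) in wild type (log2 fold change -2.31 ± 0.23 SE, adjusted p = 0.00176). Tlx2, a homeobox gene of enteric neurons, was 0.443, 0.0525 and 0 FPKM in the Ret-lacking libraries, 9.34, 11.71 and 8.89 FPKM in the Ret-holding null-labelled libraries, and 3.71 to 10.8 FPKM (median 8.40) in wild type (log2 fold change -2.83 ± 0.24 SE, adjusted p = 0.000967). In both genes the Ret-lacking libraries lay below every other E14.5 library, and the Ret-holding null-labelled libraries lay among or above the wild types. Hmx3 also fell, listed at 0 in all 3 libraries lacking Ret RNA and at 0.677 to 1.96 FPKM in wild type, as did Insm1 and Myt1.

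Of 15 tested members of this list 7 were lower and 1 higher (median -0.46), and 4 were lower with males 2 and 3 averaged, 5 without female 2 and 8 without wild-type male 2. Sox11, a SoxC factor of immature neurons and of mesenchyme, was the member that rose (log2 fold change 0.61 ± 0.12 SE, adjusted p = 0.0179). Hand2, needed both in enteric crest and in gut mesenchyme, was 22.98, 24.1 and 21.4 FPKM in the Ret-lacking libraries and 17.6 to 39.1 FPKM (median 31.5) in wild type (log2 difference -0.35 ± 0.23 SE), with overlapping groups, and did not pass. Female 2 stood apart from the males for several factors: its Isl1, a LIM factor of sensory, motor and stomach-mesenchyme cells, was 30.8 FPKM against 10.3 and 9.49 FPKM in males 2 and 3, and its Tbx3 18.1 FPKM against 3.77 and 4.74 FPKM. Dlx1 (log2 fold change -1.31 ± 0.19 SE, adjusted p = 0.00810) and Dlx2 (log2 fold change -1.12 ± 0.32 SE, adjusted p = 0.0481), homeobox genes of enteric neurons, fell, whereas Dlx5 was 4.33, 0.108 and 0.0712 FPKM in the Ret-lacking libraries and 0.234 to 2.20 FPKM (median 0.956) in wild type.

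**Figure D2:**
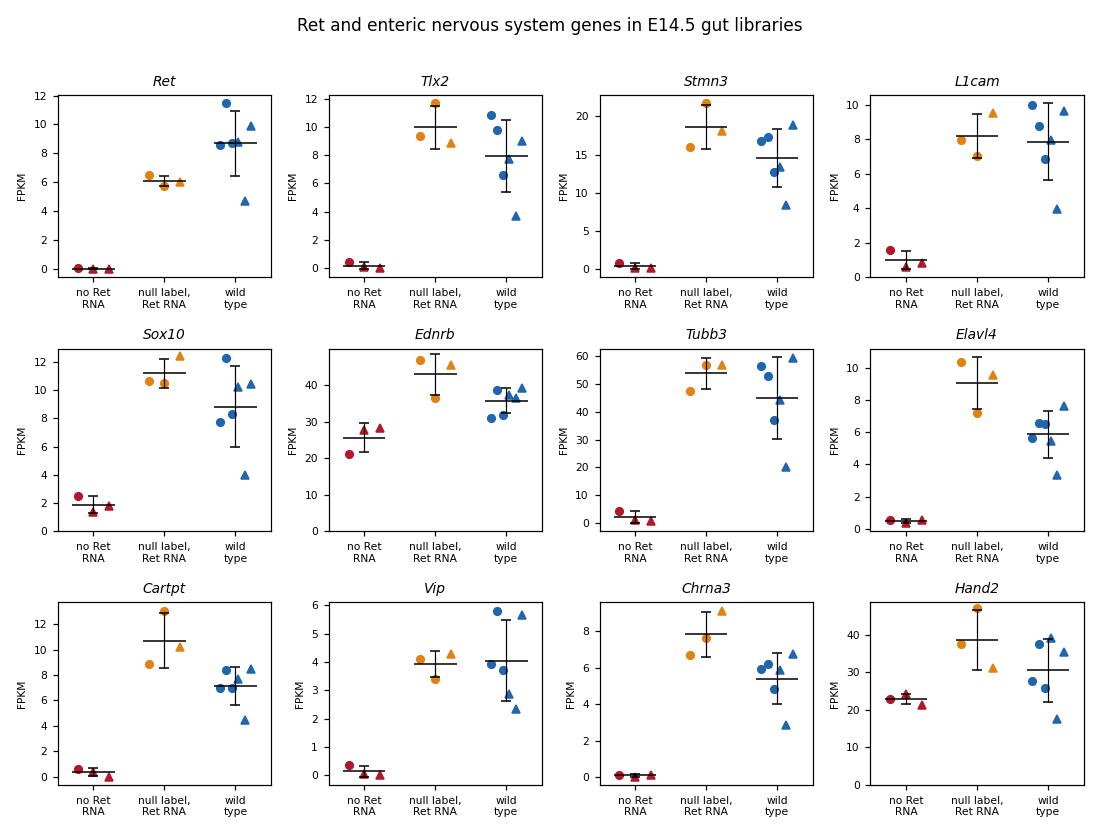
FPKM of Ret and 11 enteric nervous system genes in each E14.5 library (circles females, triangles males), with the mean and SD of each group as bars; libraries lacking Ret RNA are on the left, Ret-holding null-labelled libraries in the middle and wild type on the right. Tlx2, Tubb3, Stmn3, Elavl4, Cartpt, Vip and Chrna3 lay near 0 only on the left, and wild-type male 2 was the lowest wild-type library for most of them.

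The neuronal cytoskeleton had the highest share of losses among the neuron and crest lists: 15 of 19 tested members were lower and none higher, with a median of -1.38. Tubb3, the tubulin of neurons, was 4.54, 1.23 and 0.786 FPKM in the Ret-lacking libraries, 47.4, 56.7 and 56.8 FPKM in the Ret-holding null-labelled libraries, and 20.1 to 59.1 FPKM (median 48.6) in wild type (log2 fold change -3.84 ± 0.35 SE, adjusted p = 0.00120). Stmn3, a microtubule regulator, was 0.801, 0.139 and 0.0856 FPKM in the Ret-lacking libraries, 16.0, 21.8 and 18.1 FPKM in the Ret-holding null-labelled libraries, and 8.39 to 18.8 FPKM (median 15.1) in wild type (log2 fold change -3.47 ± 0.22 SE, adjusted p = 0.000385). Prph, the peripheral neuron filament whose promoter is given above, was 3.63, 1.28 and 1.54 FPKM in the Ret-lacking libraries, 23.1, 32.8 and 25.4 FPKM in the Ret-holding null-labelled libraries, and 12.6 to 36.8 FPKM (median 30.2) in wild type (log2 fold change -3.08 ± 0.31 SE, adjusted p = 0.00199). Female 2 held more of all 3 RNAs than males 2 and 3 and still less than any wild type. Ina, Stmn4 and Mapt (tau) fell by 2.76, 2.59 and 2.35 on the log2 scale, and Gap43, Tagln3 and Kif1a were also lower. The 4 members not called were Kif21b, Map1b, Nefm and Dcx, of which Map1b was 10.7, 8.44 and 7.22 FPKM in the Ret-lacking libraries and 9.81 to 14.52 FPKM (median 11.4) in wild type. The count was 8 of 19 with males 2 and 3 averaged, 9 without female 2, and 16 without wild-type male 2. As labelled none of 19 passed at an adjusted p under 0.05 and 5 did at an unadjusted p under 0.05.

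RNA-binding proteins of neurons showed the same order of groups. Elavl4, which stabilises neuronal messages, was 0.565, 0.358 and 0.565 FPKM in the Ret-lacking libraries, 10.4, 7.23 and 9.60 FPKM in the Ret-holding null-labelled libraries, and 3.36 to 7.67 FPKM (median 6.08) in wild type (log2 fold change -2.14 ± 0.19 SE, adjusted p = 0.00120). In this gene all 3 libraries lacking Ret RNA were close to each other. Of 8 tested members 6 were lower, among them Elavl3, Celf3 and Celf5 (log2 fold changes -2.16, -2.23 and -0.87), with 3 lower when males 2 and 3 were averaged and 2 without female 2. Outside the lists, Rtn1, a reticulon of neurons (log2 fold change -2.98 ± 0.27 SE, adjusted p = 0.00123), and Sncg, gamma-synuclein (log2 fold change -2.76 ± 0.26 SE, adjusted p = 0.00147), were among the 15 largest falls.

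**Figure D3:**
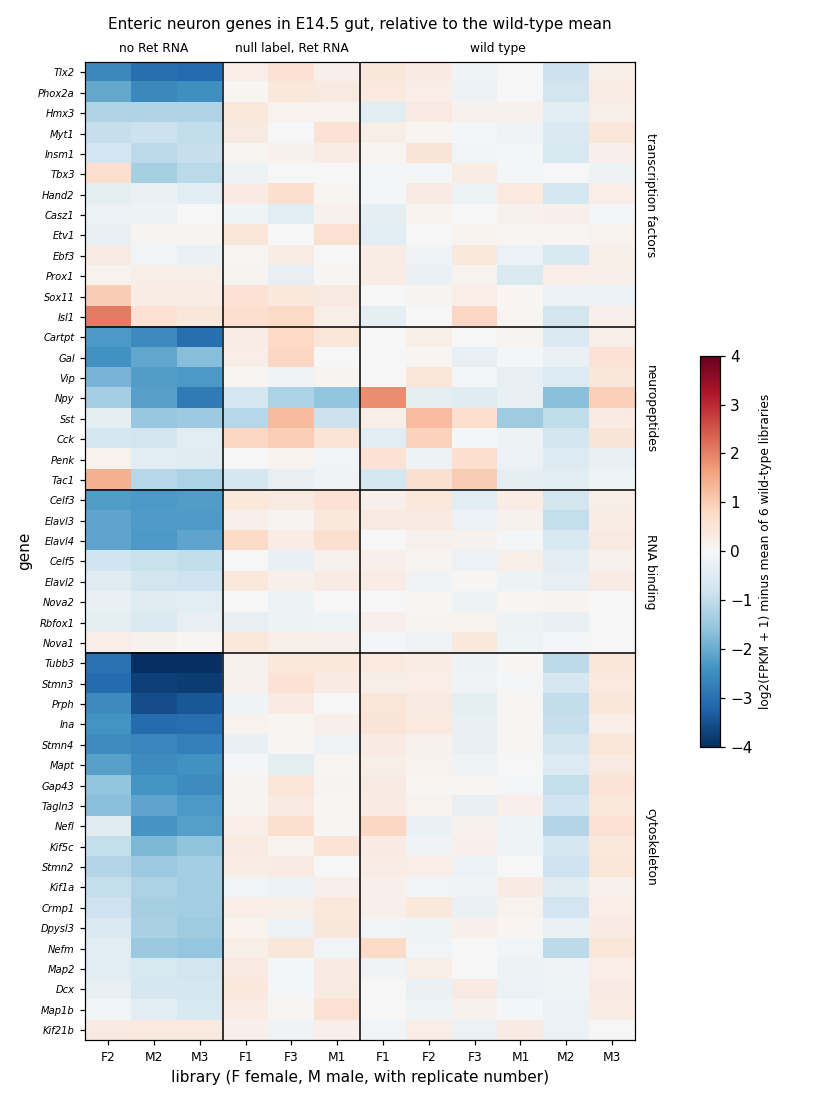
Heat map of members tested and reported from the transcription factor, neuropeptide, RNA-binding and cytoskeleton lists in the 12 E14.5 libraries, coloured by log2(FPKM + 1) minus the mean of the 6 wild-type libraries (scale capped at -4 and 4); columns run from libraries lacking Ret RNA through Ret-holding null-labelled libraries to wild type. The left 3 columns are blue for most rows, the middle 3 are near or above the wild-type mean, and Isl1 and Tac1 are reddest in female 2.

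The neuropeptides Cartpt, Gal and Vip, which early enteric neurons make, were under 1 FPKM in every Ret-lacking library. They too entered the test only through wild type. Cartpt, which encodes the CART peptide, was 0.641, 0.384 and 0 FPKM in the Ret-lacking libraries, 8.85, 13.1 and 10.2 FPKM in the Ret-holding null-labelled libraries, and 4.43 to 8.47 FPKM (median 7.34) in wild type (log2 fold change -2.57 ± 0.20 SE, adjusted p = 0.000738). Gal (galanin) was 0, 0.260 and 0.648 FPKM in the Ret-lacking libraries, 5.44, 8.41 and 4.45 FPKM in the Ret-holding null-labelled libraries, and 3.25 to 6.999 FPKM (median 4.24) in wild type (log2 fold change -2.11 ± 0.21 SE, adjusted p = 0.00176), and Vip (vasoactive intestinal peptide) was 0.360, 0.0488 and 0 FPKM in the Ret-lacking libraries, 4.11, 3.41 and 4.28 FPKM in the Ret-holding null-labelled libraries, and 2.32 to 5.82 FPKM (median 3.82) in wild type (log2 fold change -2.06 ± 0.22 SE, adjusted p = 0.00256). These were the 3 of 8 tested members that fell, and they fell also with males 2 and 3 averaged and without female 2. Npy, a peptide of enteric and sympathetic neurons, was 1.75, 0.565 and 0 FPKM in the Ret-lacking libraries and 1.19 to 24.7 FPKM (median 4.64) in wild type, and did not pass (adjusted p = 0.0713). Penk, which mesenchyme also makes, was 15.1, 10.1 and 9.56 FPKM in the Ret-lacking libraries and 9.14 to 22.5 FPKM (median 11.66) in wild type.

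Cholinergic genes led the transmitter list, in which 7 of 15 tested members were lower and none higher (median -0.83). Chrna3, a subunit of the ganglionic acetylcholine receptor, was 0.117, 0.0222 and 0.136 FPKM in the Ret-lacking libraries, 6.71, 7.65 and 9.12 FPKM in the Ret-holding null-labelled libraries, and 2.84 to 6.72 FPKM (median 5.89) in wild type (log2 fold change -2.49 ± 0.21 SE, adjusted p = 0.000967). Its partner subunit Chrnb4, which lies beside it on chromosome 9, fell by 1.88 on the log2 scale. Slc18a3, the vesicular acetylcholine transporter, was 0.464, 0 and 0 FPKM in the Ret-lacking libraries and 1.17 to 2.81 FPKM (median 1.87) in wild type (log2 fold change -1.33 ± 0.23 SE, adjusted p = 0.0125), and Ache, acetylcholinesterase, fell by 1.40. Nos1, nitric oxide synthase of inhibitory neurons, was 0.0492, 0.0155 and 0.0190 FPKM in the Ret-lacking libraries and 0.342 to 0.936 FPKM (median 0.739) in wild type and was under the level filter. The catecholamine genes Th and Dbh, which sympathetic cells also express, did not pass. Th was 0.395, 0.500 and 0.256 FPKM in the Ret-lacking libraries and reached 14.9 FPKM in wild-type female 1, and Dbh was 0.428, 0.156 and 0.0766 FPKM in the Ret-lacking libraries and reached 18.9 FPKM in that wild type. With males 2 and 3 averaged 3 of 15 were lower, and 1 was without female 2.

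Of 25 tested secretory granule and release genes 14 were lower and none higher (median -0.86), among them the vesicle calcium sensor Syt1 (log2 fold change -1.66 ± 0.19 SE, adjusted p = 0.00383), Syt11 and the endosomal protein Nsg2. The count was 6 with males 2 and 3 averaged, 4 without female 2 and 2 of 25 as labelled. Uchl1, the ubiquitin hydrolase used to stain neurons, was 14.8, 8.29 and 8.21 FPKM in the Ret-lacking libraries, 45.0, 53.2 and 47.7 FPKM in the Ret-holding null-labelled libraries, and 38.1 to 61.9 FPKM (median 46.1) in wild type (log2 fold change -2.06 ± 0.19 SE, adjusted p = 0.00120). The residue of female 2 was again above that of the males. Of 8 tested voltage-gated channel genes 3 were lower, led by the sodium channel subunit Scn3b (log2 fold change -1.65 ± 0.24 SE, adjusted p = 0.00781), and none were higher. Cacna1b was among them. The list's median was -0.31 and changed sign under 5 alternatives, among them rescaling to equal sums (0.02) and leaving out wild-type male 3 (0.04).

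Axon guidance genes were divided. L1cam, an adhesion protein of crest cells and axons, was 1.56, 0.573 and 0.828 FPKM in the Ret-lacking libraries, 7.96, 7.02 and 9.53 FPKM in the Ret-holding null-labelled libraries, and 3.97 to 10.01 FPKM (median 8.36) in wild type (log2 fold change -2.08 ± 0.23 SE, adjusted p = 0.00318). The receptor Robo1 moved the other way, at 20.7, 18.2 and 18.2 FPKM in the Ret-lacking libraries, 14.49, 11.6 and 17.1 FPKM in the Ret-holding null-labelled libraries, and 9.85 to 12.8 FPKM (median 11.6) in wild type (log2 fold change 0.68 ± 0.09 SE, adjusted p = 0.00651), and its ligand Slit2 rose by 0.45 on the log2 scale. For Robo1 the Ret-holding null-labelled libraries overlapped the wild types. Of 16 tested members 2 were higher and 2 lower, the second of these being the synaptic adhesion gene Nrxn2.

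Crest progenitor and glia genes fell in part. Sox10, the factor that marks enteric crest progenitors and glia, was 2.51, 1.37 and 1.77 FPKM in the Ret-lacking libraries, 10.6, 10.53 and 12.4 FPKM in the Ret-holding null-labelled libraries, and 3.97 to 12.3 FPKM (median 9.26) in wild type (log2 fold change -1.67 ± 0.27 SE, adjusted p = 0.00978). Sox10 was over 1 FPKM in every Ret-lacking library. Fabp7, a fatty acid binding protein of glial precursors, was 6.15, 5.43 and 3.59 FPKM in the Ret-lacking libraries, 20.1, 17.5 and 23.7 FPKM in the Ret-holding null-labelled libraries, and 9.26 to 23.99 FPKM (median 17.8) in wild type (log2 fold change -1.51 ± 0.24 SE, adjusted p = 0.00948). Foxd3, Sox8, Gas7 and Ednrb made up the 6 of 16 members that were lower. Erbb3, a neuregulin receptor of crest and epithelium, was 11.8, 13.6 and 12.8 FPKM in the Ret-lacking libraries and 8.75 to 15.9 FPKM (median 11.97) in wild type and did not pass. With males 2 and 3 averaged 3 of 16 were lower and without female 2 none of 15 were, where 7 passed at an unadjusted p under 0.05.

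Genes of the signals that act on crest cells from their surroundings formed short lists. Over all genes tested 7.47% were called higher and 5.98% lower, and lists this short cannot be told apart from those shares. Of 7 tested GDNF family ligand and receptor genes 1 was higher and none lower, and of 7 tested endothelin genes 1 was higher and 1 lower. Gdnf, the Ret ligand, was 7.83, 8.91 and 8.85 FPKM in the Ret-lacking libraries, 7.33, 6.95 and 6.503 FPKM in the Ret-holding null-labelled libraries, and 1.89 to 5.08 FPKM (median 4.72) in wild type (log2 fold change 0.92 ± 0.22 SE, adjusted p = 0.0312). All 6 null-labelled libraries lay above all 6 wild types, and the interval of the difference between libraries lacking and holding Ret RNA within the null label was -0.19 to 0.84 on the log2 scale. Gfra1, the co-receptor, which mesenchyme also expresses, was 18.1, 19.9 and 17.8 FPKM in the Ret-lacking libraries, 22.9, 19.9 and 24.8 FPKM in the Ret-holding null-labelled libraries, and 7.65 to 16.9 FPKM (median 14.3) in wild type (log2 difference 0.49 ± 0.19, adjusted p = 0.108). Nrtn, the ligand neurturin, was 3.14, 2.52 and 2.54 FPKM in the Ret-lacking libraries and 3.11 to 7.37 FPKM (median 4.495) in wild type (adjusted p = 0.0719). In the endothelin system, the other main signal to enteric crest, the ligand Edn3 rose (log2 fold change 0.41 ± 0.10 SE, adjusted p = 0.0360) and the receptor Ednrb, on crest cells, fell: it was 21.1, 27.6 and 28.2 FPKM in the Ret-lacking libraries, 47.0, 36.6 and 45.4 FPKM in the Ret-holding null-labelled libraries, and 30.9 to 39.1 FPKM (median 36.9) in wild type (log2 fold change -0.51 ± 0.08 SE, adjusted p = 0.0113). The rises of Gdnf and Edn3 did not pass with males 2 and 3 averaged (adjusted p = 0.118 and 0.113).

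Of 17 tested goblet and secretory epithelial genes 4 were lower and none higher. Tff3, a mucus-layer peptide of goblet cells, was 4.13, 18.6 and 16.8 FPKM in the Ret-lacking libraries, 8.86, 18.3 and 23.9 FPKM in the Ret-holding null-labelled libraries, and 44.7 to 175 FPKM (median 78.6) in wild type (log2 fold change -2.81 ± 0.53 SE, adjusted p = 0.0158). Spink4, a goblet-cell protease inhibitor, was 0.341, 3.34 and 0.426 FPKM in the Ret-lacking libraries, 0.691, 2.39 and 1.37 FPKM in the Ret-holding null-labelled libraries, and 5.48 to 37.9 FPKM (median 16.6) in wild type (log2 fold change -3.12 ± 0.61 SE, adjusted p = 0.0175). Guca2a (guanylin) and Ly6d were the others that fell. The list had a median of -0.49, and 9 of 18 were lower as labelled. Among 16 enteroendocrine genes Ghrl (ghrelin) and Sct (secretin), both hormones, were lower. Sct was 2.40, 8.88 and 3.99 FPKM in the Ret-lacking libraries, 5.93, 9.51 and 8.17 FPKM in the Ret-holding null-labelled libraries, and 19.7 to 52.8 FPKM (median 33.3) in wild type (log2 fold change -2.54 ± 0.39 SE, adjusted p = 0.00836). Neither Tff3 nor Sct overlapped between null-labelled and wild-type libraries, and within the null label the log2 difference between libraries lacking and holding Ret RNA was -0.57 (interval -1.87 to 0.73) for Tff3 and -0.65 (interval -1.58 to 0.28) for Sct. Of the absorptive enterocyte genes 1 of 19 was lower, Apoc3, and 10 of 19 as labelled. No goblet or enterocyte gene passed in limma when males 2 and 3 were averaged, or without female 2. At an unadjusted p under 0.05, 6 goblet and 8 enterocyte genes did with males averaged, and 5 goblet and 3 enterocyte genes without female 2.

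Pancreatic and red cell levels are given beside the epithelial genes, and their sums overlapped between the groups. Summed over 27 acinar genes the Ret-lacking libraries held 212 to 457 FPKM, the Ret-holding null-labelled libraries 303 to 583 FPKM and wild type 435 to 3632 FPKM, and 2 of 24 tested members were lower, Spink3 (log2 fold change -1.66 ± 0.41 SE, adjusted p = 0.0328) and Amy2a5 (log2 fold change -2.58 ± 0.69 SE, adjusted p = 0.0425). Amy2a5 is 1 of a cluster of near-identical amylase genes and has more than 1 entry, so its value is uncertain. Red cell genes summed to 3389 to 7197 FPKM in the Ret-lacking libraries, 3189 to 6946 FPKM in the Ret-holding null-labelled libraries and 6175 to 39257 FPKM in wild type. The adult beta-globins Hbb-b2 (log2 fold change -2.21 ± 0.59 SE, adjusted p = 0.0424) and Beta-s (log2 fold change -1.94 ± 0.55 SE, adjusted p = 0.0485), which are near-identical copies, were the 2 of 15 called. As labelled 16 of 24 acinar and 5 of 15 red cell genes were lower. No gene of either list passed in limma when males 2 and 3 were averaged, or without female 2. At an unadjusted p under 0.05, 12 acinar and 3 red cell genes did with males averaged, and 1 acinar and 6 red cell genes without female 2. When the 4 wild-type libraries with the most pancreatic RNA were left out, which leaves 2, 281 genes were higher and 195 lower, of 13114 tested. A gene under 1 FPKM in every Ret-lacking library cannot reach the level filter of 3 libraries there. Tested neuron and crest members went from 133 to 82, so the filter itself cut the count of lower genes. Tff3 and Sct kept log2 fold changes of -2.39 and -2.30 and did not pass (adjusted p = 0.0762 for Tff3 and 0.0621 for Sct). The part of pancreatic and blood RNA in the epithelial differences was not tested further.

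Of 20 tested macrophage genes 10 were lower and none higher. Lyz2, a lysozyme, was 8.94, 10.7 and 16.0 FPKM in the Ret-lacking libraries, 12.6, 15.5 and 10.2 FPKM in the Ret-holding null-labelled libraries, and 19.95 to 34.2 FPKM (median 27.6) in wild type (log2 fold change -1.19 ± 0.16 SE, adjusted p = 0.00640). C1qa, a chain of complement C1q made by gut macrophages, was 7.11, 8.16 and 9.36 FPKM in the Ret-lacking libraries, 10.3, 11.68 and 8.74 FPKM in the Ret-holding null-labelled libraries, and 13.3 to 18.8 FPKM (median 15.1) in wild type (log2 fold change -0.88 ± 0.08 SE, adjusted p = 0.00147). The list had a median of -0.49, with C1qb also among the genes that fell, and the summed level was 122 to 135 FPKM in the Ret-lacking libraries, 114 to 186 FPKM in the Ret-holding null-labelled libraries and 176 to 233 FPKM in wild type. The count was 4 with males 2 and 3 averaged, 3 without female 2 and 9 as labelled. Of 19 endothelial genes 1 was lower, Lyve1 (log2 fold change -0.84 ± 0.13 SE, adjusted p = 0.00938), a receptor of lymphatic vessels and of macrophages.

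Of 26 tested glycolysis and hypoxia genes 13 were lower and none higher. Pfkp, a phosphofructokinase isoform, was 3.53, 4.52 and 4.29 FPKM in the Ret-lacking libraries, 5.58, 5.65 and 6.12 FPKM in the Ret-holding null-labelled libraries, and 9.70 to 14.1 FPKM (median 13.1) in wild type (log2 fold change -1.42 ± 0.11 SE, adjusted p = 0.000738). It passed in all 23 alternative settings. Tpi1 and Pgk1, later enzymes of the pathway, fell by 0.63 and 0.53 on the log2 scale. The list had a median of -0.43, and the count of lower genes was 15 as labelled, 5 with males 2 and 3 averaged, 3 without female 2 and 9 after rescaling to equal sums. Of 26 oxidative phosphorylation genes 5 were lower, namely Uqcrq and Cox4i1 (log2 fold changes -0.77 and -0.47), Cox5b, Ndufa2 and Ndufs8. The count was 16 after median-ratio rescaling, 2 after rescaling to equal sums and none with males 2 and 3 averaged, where 16 passed at an unadjusted p under 0.05.

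**Figure D4:**
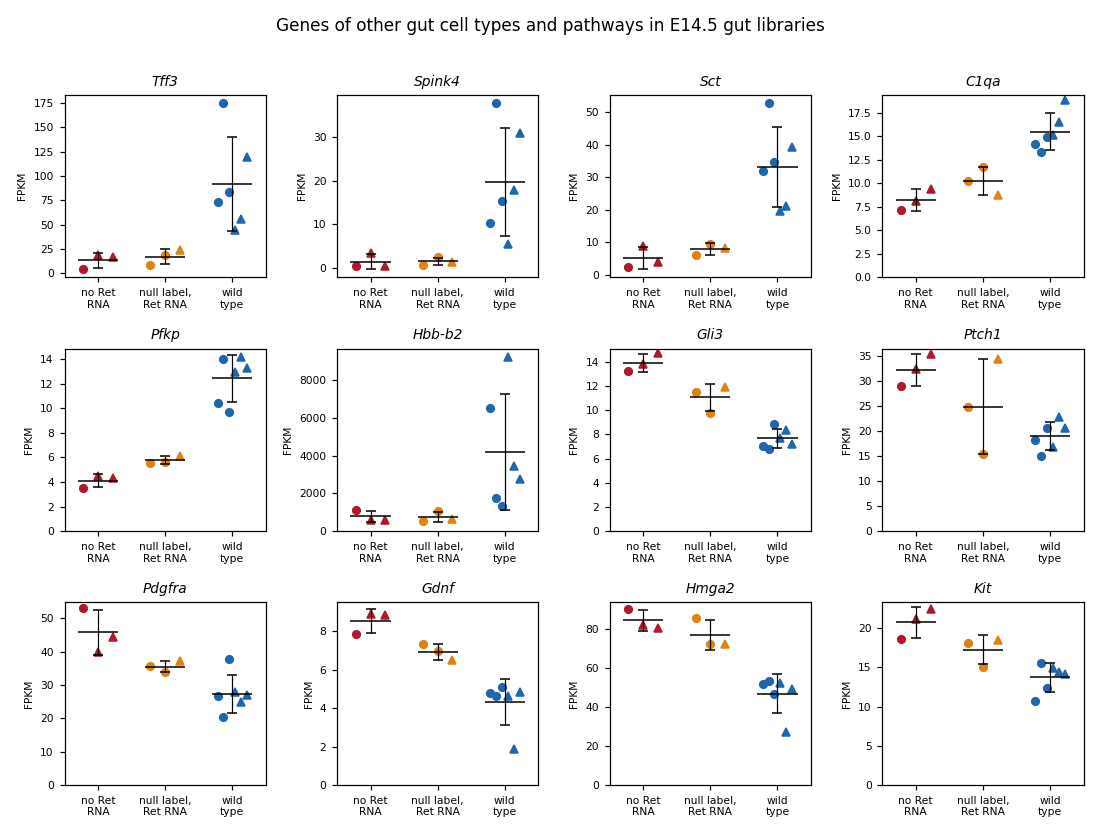
FPKM of 12 genes outside the enteric nervous system in each E14.5 library (circles females, triangles males) with group means and SD, in the same left-to-right order of groups. Tff3, Spink4, Sct, C1qa and Pfkp were low in both null-labelled groups, while Gli3, Gdnf and Hmga2 lay above every wild-type library in both.

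Of 13 tested hedgehog genes 6 were higher and none lower in the Ret-lacking libraries. Gli3, a transducer of hedgehog signals in gut mesenchyme, was 13.2, 13.8 and 14.7 FPKM in the Ret-lacking libraries, 11.5, 9.79 and 11.9 FPKM in the Ret-holding null-labelled libraries, and 6.76 to 8.87 FPKM (median 7.46) in wild type (log2 fold change 0.78 ± 0.09 SE, adjusted p = 0.00393). Ptch1, the hedgehog receptor and target gene, was 29.0, 32.4 and 35.4 FPKM in the Ret-lacking libraries, 24.9, 15.4 and 34.3 FPKM in the Ret-holding null-labelled libraries, and 15.05 to 22.8 FPKM (median 19.4) in wild type (log2 fold change 0.71 ± 0.12 SE, adjusted p = 0.0100). For Gli3 the Ret-holding null-labelled libraries lay between the other groups, and for Ptch1 they spread across both. The hedgehog list had a median of 0.35, and 7.47% of all genes were higher. The count was 6 as labelled, 3 after median-ratio rescaling, 9 after rescaling to equal sums, 1 with males 2 and 3 averaged and 1 without female 2. Over all genes in the same order, 1718 of 13861, 520 of 13732, 5605 of 13759, 62 of 13679 and 16 of 13647 were higher.

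Of 17 tested gut mesenchyme genes 7 were higher and none lower (median 0.46). Pdgfra, the receptor that marks subepithelial mesenchyme, was 53.2, 40.0 and 44.5 FPKM in the Ret-lacking libraries, 35.6, 33.8 and 37.1 FPKM in the Ret-holding null-labelled libraries, and 20.4 to 37.8 FPKM (median 26.8) in wild type (log2 fold change 0.76 ± 0.16 SE, adjusted p = 0.0233). Foxf1, a hedgehog-responsive mesenchymal factor, was 51.4, 65.8 and 68.3 FPKM in the Ret-lacking libraries, 58.4, 60.1 and 58.1 FPKM in the Ret-holding null-labelled libraries, and 29.1 to 47.6 FPKM (median 43.9) in wild type (log2 fold change 0.54 ± 0.11 SE, adjusted p = 0.0223), and Bmp4 rose by 0.46 on the log2 scale. Foxf1 did not overlap between null-labelled and wild-type libraries. With males 2 and 3 averaged, and likewise without female 2, none of the 17 passed, where 9 and 7 did at an unadjusted p under 0.05. Of 22 Wnt genes 4 were higher: the ligands Wnt5a and Wnt2b and the antagonists Notum and Sfrp1 (log2 fold change 0.73 ± 0.20 SE, adjusted p = 0.0434). Wnt5a was 35.4, 21.3 and 21.8 FPKM in the Ret-lacking libraries and 11.1 to 26.7 FPKM (median 14.1) in wild type, and wild-type female 3 lay above both Ret-lacking males. No Wnt gene passed in limma with males 2 and 3 averaged, without any 1 Ret-lacking library, without wild-type male 3 or with no level filter. With males averaged 4 of 22 did at an unadjusted p under 0.05, as did 3376 of all 13679 genes. Without female 2, 5 of 20 did, as did 2821 of all 13647 genes. The median of the list without female 2 was -0.02, against 0.11 with all libraries.

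Counts for muscle, pacemaker and further lists are to be read against 7.47% of all genes called higher and 5.98% called lower. Kit, the receptor of interstitial cells of Cajal, the pacemaker cells of gut, was 18.6, 21.1 and 22.5 FPKM in the Ret-lacking libraries, 18.1, 15.1 and 18.5 FPKM in the Ret-holding null-labelled libraries, and 10.7 to 15.6 FPKM (median 14.3) in wild type (log2 fold change 0.54 ± 0.10 SE, adjusted p = 0.0163), and Ano1, their chloride channel, rose by 0.42 on the log2 scale. These were 2 of 7 tested members, and neither passed with males 2 and 3 averaged (adjusted p = 0.0715 and 0.0561). Of 17 smooth muscle genes, the coactivator Myocd and Synpo2 were higher and the filament gene Des was lower (log2 fold change -0.61 ± 0.09 SE, adjusted p = 0.00827). Of 13 retinoid genes 3 were higher, led by the retinol dehydrogenase Rdh10, with Rarb and Cyp26b1, and 1 was lower (log2 fold change 0.71 for Rdh10). None of these genes was called higher in limma with males 2 and 3 averaged, without any 1 Ret-lacking library or without wild-type male 3, and 1 was after median-ratio rescaling. In either direction 5 passed at an unadjusted p under 0.05 with males averaged, and 5 without female 2. In the Notch list the feedback gene Nrarp fell (log2 fold change -0.60 ± 0.08 SE, adjusted p = 0.00595), as did Dll3 and Hes6, which neural precursors express, and the receptor Notch2 rose, out of 16 tested. The cell cycle list had 2 of 26 higher, the replication licensing gene Mcm4 (log2 fold change 0.42 ± 0.06 SE, adjusted p = 0.00827) and Ccnd2, and 1 lower, cyclin D1 (Ccnd1, log2 fold change -0.47 ± 0.12 SE, adjusted p = 0.0397). Without female 2 no smooth muscle, Notch or cell cycle gene passed in limma, where 3 smooth muscle, 7 Notch and 4 cell cycle genes did at an unadjusted p under 0.05. When males 2 and 3 were averaged 1 smooth muscle and 2 Notch genes were lower and 1 cell cycle gene was higher.

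Of 6 tested heterochronic genes, which are high early in development and fall with age, 3 were higher. Hmga2, a chromatin protein of early embryos, was 90.7, 82.4 and 81.0 FPKM in the Ret-lacking libraries, 86.1, 72.8 and 72.6 FPKM in the Ret-holding null-labelled libraries, and 27.0 to 53.3 FPKM (median 50.7) in wild type (log2 fold change 0.91 ± 0.18 SE, adjusted p = 0.0195). All 6 null-labelled libraries exceeded all 6 wild types. Igf2bp3, an RNA-binding protein of embryonic tissue, and Hmga1 were the others. Neither with males 2 and 3 averaged nor without female 2 did any of the 6 pass, where 3 did without female 2 at an unadjusted p under 0.05 and 3 did with males averaged. At E12.5 Hmga2 averaged 216 FPKM in the Ret-lacking libraries and 245 FPKM in wild type.

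Among the 15 largest rises, named genes with a known product were Tdh, Nepn, Isl2, Ulbp1, Sesn3, Zfhx4, Samd5, Kif26b, Kcnd3 and Rbm46. Tdh, threonine dehydrogenase, a metabolic enzyme of pluripotent mouse cells, was 4.11, 3.39 and 6.64 FPKM in the Ret-lacking libraries, 4.18, 4.52 and 3.30 FPKM in the Ret-holding null-labelled libraries, and 0.211 to 1.87 FPKM (median 1.19) in wild type (log2 fold change 1.47 ± 0.27 SE, adjusted p = 0.0148). Nepn, a matrix proteoglycan of foregut endoderm, was 11.5, 7.87 and 9.24 FPKM in the Ret-lacking libraries, 11.3, 8.85 and 10.1 FPKM in the Ret-holding null-labelled libraries, and 0.433 to 5.09 FPKM (median 3.04) in wild type (log2 fold change 1.44 ± 0.39 SE, adjusted p = 0.0434). Isl2, a LIM homeobox factor, was 5.93, 4.16 and 4.30 FPKM in the Ret-lacking libraries, 2.65, 2.83 and 2.65 FPKM in the Ret-holding null-labelled libraries, and 0.697 to 2.67 FPKM (median 1.83) in wild type (log2 fold change 1.21 ± 0.25 SE, adjusted p = 0.0199). In Tdh and Nepn the null-labelled groups overlapped each other and lay above wild type, whereas in Isl2 those with Ret RNA lay between, at the upper edge of wild type. Kif26b, Zfhx4 and Wnt5a were highest in female 2 (13.9, 10.3 and 35.4 FPKM). The remaining rises were Rik and BC entries (BC002163, A530016L24Rik, 2410018L13Rik, 9030624G23Rik) and the second entry of Mir684-1, whose 85-base locus stood at 833, 806 and 777 FPKM in the Ret-lacking libraries and 291 to 387 FPKM (median 335) in wild type. FPKM of so short a locus is uncertain, and poly(A)-selected libraries do not measure mature miRNAs. The largest fall of all genes called was that of the pseudogene Atp6v0c-ps2, at 0.0195, 0.0147 and 11.2 FPKM in the Ret-lacking libraries and 23.6 to 78.3 FPKM (median 35.2) in wild type. Its reads can be shared with Atp6v0c, and the jump between libraries of 1 group makes its value uncertain.

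Counts for the lists of other tissues and processes are likewise to be read against 7.47% of all genes called higher and 5.98% called lower. Of 8 stomach genes Osr1 was higher, of 7 mesothelial genes Bnc1, and of 16 imprinted genes Grb10 and Ppp1r9a, while of 13 p53 genes Mdm2 was higher and Phlda3 lower. None of these lists held a call with males 2 and 3 averaged or without female 2, where 1 stomach, 1 mesothelial, 3 imprinted and 5 p53 genes passed at an unadjusted p under 0.05 with males averaged. No member passed of 15 heart and striated muscle genes, 12 immediate early genes, 11 liver genes, 6 urogenital genes, 5 genes of other neural tissue and 2 mast, T or B cell genes. At an unadjusted p under 0.05, 2 heart genes, 5 immediate early genes, 1 urogenital gene and 1 gene of other neural tissue passed, and none of the liver, mast, T or B cell genes did.

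**Figure D5:**
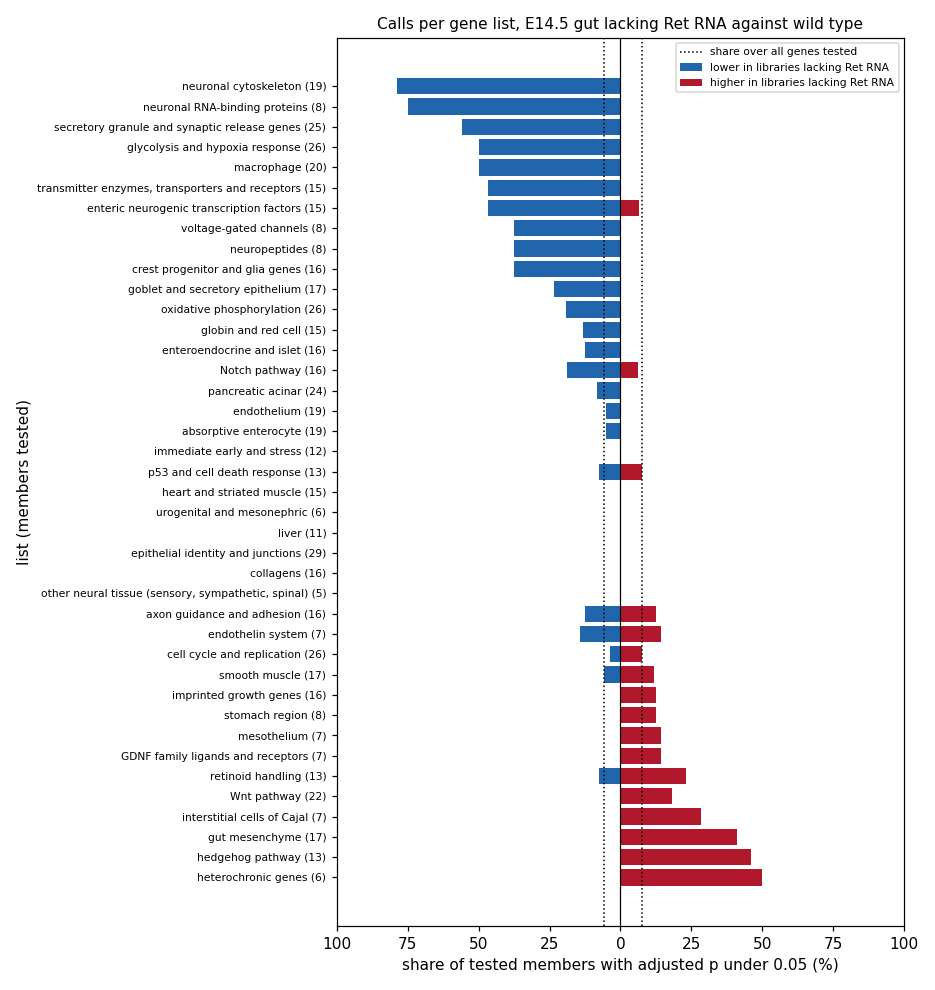
Share of tested members (x axis, percent) called lower (blue, to the left) or higher (red, to the right) in E14.5 libraries lacking Ret RNA against wild type, for each gene list with 5 or more tested members; dotted lines mark the shares over all genes, 5.98% lower and 7.47% higher. Neuronal cytoskeleton (15 of 19) and RNA-binding (6 of 8) lists lead on the side of losses, and heterochronic (3 of 6), hedgehog (6 of 13) and gut mesenchyme (7 of 17) lists on the side of rises.

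Around Ret itself (chromosome 6, 118151748 to 118197744, mm10) 148 other genes within 10 Mb were tested, and 8 were higher and 13 lower, near the shares over all genes of 7.47% and 5.98%. Fam21 rose (log2 fold change 0.51 ± 0.06 SE, adjusted p = 0.00285), as did the chemokine gene Cxcl12 and the neurotrophin gene Ntf3 (log2 fold changes 0.50 and 0.72). Creld1 fell by 0.72. The synaptic genes Syn2 and Lhfpl4, whose products belong to neurons, fell by 0.89 and 0.97, and Tpi1 lies in the same interval. Within this stretch no gene other than Ret was under 0.1 FPKM in all Ret-lacking libraries and over 2 FPKM in all wild types.

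Within the null label, 142 of 13861 genes tested were lower (1.02%) and 1 was higher (0.00721%) in the Ret-lacking than in the Ret-holding null-labelled libraries. The 1 higher gene was Adat3, a tRNA deaminase subunit, named after its value was seen (log2 difference 0.61, adjusted p = 0.0245). Both sides of that comparison were chosen by Ret RNA, so its calls are given as a description only. Log2 differences were -4.11 for Tubb3, -3.07 for Cartpt and -2.03 for Sox10. For 5 genes chosen after their values were seen, because all 6 null-labelled libraries lay on 1 side of the wild types, they were -0.01 for Nrarp (interval -0.22 to 0.20), -0.18 for Lyz2 (-0.69 to 0.32), -0.13 for Pgk1 (-0.33 to 0.08), -0.02 for Foxf1 (-0.33 to 0.28) and 0.21 for Hmga2 (-0.23 to 0.65). Pfkp was lower again by value in the Ret-lacking libraries (-0.48, interval -0.74 to -0.22, adjusted p = 0.133).

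At E12.5, 5 libraries lacked Ret RNA by the same limit and were set against 6 wild types, of which females 1 and 2 were averaged because they differed by 1.085 times the counting noise with 0.712% of genes beyond 3 SD, under both limits used, and both of these also held Y-linked RNA. A test of whether the difference from wild type differed between E14.5 and E12.5 called 1589 genes higher (11.3% of 14088) and 909 lower (6.45%). The authors' intervals implied more fragments in every E12.5 library than in any E14.5 library. Stage and depth therefore cannot be separated in this test, and the part of depth in its calls was not tested. Low levels of Cartpt and Sox10 were also seen at E12.5. There Cartpt averaged 1.58 FPKM in Ret-lacking and 13.7 FPKM in wild-type libraries. Sox10 averaged 2.24 FPKM in Ret-lacking and 10.3 FPKM in wild-type ones. For these genes the test of the stage difference did not pass (adjusted p = 0.967 for Cartpt and 0.765 for Sox10). A p over the threshold does not show that the stages were alike. Other genes had a larger fall at E14.5, though they had been named because they were called there. Uchl1 averaged 20.9 FPKM in E12.5 libraries lacking Ret RNA and 32.4 FPKM in wild type (stage difference -1.32, adjusted p = 0.00982), and Nsg2, Sncg and Fabp7 passed in the same direction. Vip and Mapt also passed, but averaged only 0.591 FPKM and 1.78 FPKM in E12.5 wild types, levels from which log2(FPKM + 1) cannot fall as far as it did at E14.5. Over the neuron and crest lists together 17 of 135 were lower and 5 higher in this test. Tff3 averaged 2.72 FPKM in E12.5 libraries lacking Ret RNA and 1.51 FPKM in wild type, so that its stage difference was -3.55 (adjusted p = 0.00432). Its E12.5 wild-type level, and that of Sct (1.78 FPKM), likewise left no room for a fall as large as at E14.5. Sct, Pfkp, C1qa and Gli3 also differed from wild type more at E14.5.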

How the data were processed

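RNA of dissected guts of mouse embryos was oligo(dT)-selected, per the labels' protocols, and sequenced as 75-base pairs, per the series' design text. The deposited values are FPKM per gene with an interval, made by the authors with TopHat2, Cufflinks and Cuffdiff on mm10, per the submitters' processing notes, which give no versions. Of 36 files, those of E12.5 and E14.5 were used.

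Genes with 1 FPKM or more in at least 3 libraries of a fit were tested with limma 3.58.1 (R 4.3.3) on log2(FPKM + 1), with sex as a term and a mean-variance trend, two-sided, with Benjamini-Hochberg adjusted p under 0.05 over all genes tested. The test was checked on simulated data. Entries the authors' software did not mark as OK were left out. FPKM hold no counts, so depth was estimated from the authors' intervals, and its precision is limited by that. Alternatives covered pseudocount, filter, scaling, trend, sex, labels, pairing by replicate number and leaving out libraries; 3 were added after the data were seen (averaged males, pancreas-rich wild types left out, and averaged males with rescaling).

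The libraries, gene lists and tests were chosen with earlier results of these data known. Genes named were Ret, the 15 largest falls and 15 largest rises, up to 4 called members of each list with the smallest p, and called genes within 10 Mb of Ret; of these 137 genes beside Ret, 116 are described. Some genes that the rule or the lists hold are not reported here. Other list members were named after their values were seen.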

Additional observations from a re-analysis of the deposited data

Results flagged for a closer look

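Among the 116 genes named by the rule and described, 10 had 1 wild-type library set apart from the other 5, judged by its gap to the nearest of the others as a share of the range of all 6. Chance flags about 1 in 20 such groups. In wild-type female 1 the highest wild-type value was that of Ly6d (19.4 FPKM) and Ccnd1 (63.1 FPKM). In wild-type female 1 the lowest wild-type value was that of Phlda3 (16.5 FPKM). In wild-type female 2 the highest wild-type value was that of Apoc3 (9.01 FPKM). In wild-type female 3 the highest wild-type value was that of Wnt5a (26.7 FPKM). In wild-type male 2 the highest wild-type value was that of Lyve1 (12.8 FPKM). In wild-type male 2 the lowest wild-type value was that of Gdnf (1.89 FPKM), Rdh10 (10.8 FPKM) and Hmga2 (27 FPKM). In wild-type male 3 the highest wild-type value was that of Gal (7 FPKM). Wild-type male 2 also held the most heart and striated muscle RNA and the least enteric neuron RNA of the wild types, and female 1 the most liver RNA. The part of neighbouring tissue in these values was not tested.

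For 58 of these genes the difference between Ret-lacking and wild-type libraries differed between E14.5 and E12.5 (limma, contrast of the differences, Benjamini-Hochberg adjusted p under 0.05). Values below are the E14.5 difference minus the E12.5 difference on the log2(FPKM + 1) scale. These values share libraries with the comparison within E14.5. The genes were named because they were called in that comparison, so the choice itself favoured larger differences at E14.5. The count of 58 is therefore a description only. Over all 14088 genes tested, 1589 were called higher and 909 lower in this contrast. Depth also differed between the stages, as said above. Among neuron and crest genes they were Rtn1 -1.69, Sncg -2.05, Stmn4 -1.56, Gas7 -0.56, Fabp7 -1.24, Vip -1.58, Ache -1.12, Mapt -1.47, Uchl1 -1.32, Nsg2 -1.35 and Robo1 0.79. Other genes with a more negative difference at E14.5 were Atp6v0c-ps2 -4.08, Spink4 -3.16, Tff3 -3.55, Amy2a5 -2.58, Des -0.94, Nrarp -0.59, Ly6d -2.43, Guca2a -2.08, Apoc3 -1.69, Sct -2.75, C1qb -0.95, C1qa -0.97, Pfkp -1.31, Tpi1 -0.62, Pgk1 -0.42, Uqcrq -0.73, Ndufa2 -0.54, Cox4i1 -0.53, Cox5b -0.55, Phlda3 -0.61 and Creld1 -0.66. Other genes with a more positive difference at E14.5 were BC002163 1.12, Mir684-1_entry2 1.63, Isl2 1.44, Ulbp1 1.44, Sesn3 1.04, Zfhx4 1.17, 2410018L13Rik 0.99, 9030624G23Rik 1.08, Samd5 1.08, Kif26b 1.0, Rbm46 0.94, Pdgfra 0.94, Gli3 0.70, Ptch1 0.73, Notch2 0.27, Rarb 0.73, Bnc1 0.89, Mcm4 0.47, Ccnd2 0.47, Mdm2 0.31, Hmga2 1.09, Igf2bp3 0.61, Ppp1r9a 0.57, Grb10 0.46, Fam21 0.32 and Ntf3 0.83.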

How the results depend on the processing

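The count of genes that differed between Ret-lacking and wild-type libraries (1846) stayed within 1.5 times under a pseudocount of 0.1 (1889), no level filter (1341), median-ratio rescaling (1631), no trend (1691), no term for sex (2491), all 12 libraries in the fit (1762) and the labels alone (2451). It was 6144 after rescaling to equal sums, 1182 with 4 means of genotype by sex, 7 with males alone, 476 without the 4 wild-type libraries richest in pancreatic RNA, 245 with males 2 and 3 averaged and 441 when median-ratio rescaling was joined to that. Leaving out 1 library at a time gave 103 to 2294: 103 without Ret-lacking female 2, 330 without male 2, 237 without male 3 and 684 without wild-type male 3. Fewer libraries entered these fits, and the cause of the range was not tested. For 143 genes within the null label the count was 48 to 193 on leaving out 1 library (79 or fewer without any one Ret-lacking library, Ret-holding female 1 or male 1), and 69 with both median-ratio rescaling and averaged males. For 2498 genes differing between stages it was 5647 with equal sums and 996 to 2971 on leaving out 1 library (lowest without E14.5 Ret-lacking female 2, then 1509 without male 3, and 1528 and 1598 without E12.5 wild-type female 3 or 1); the share higher was 63.6%, and 40.3% after median-ratio rescaling. Residual correlations of same-numbered libraries of 1 sex were -0.475, -0.234 and -0.020. These few values come from residuals of 1 shared fit and cannot show whether replicate numbers pair the libraries. The fit with a replicate block called 153 genes. Of the 116 genes named by the rule and described, none reversed in a setting in which it was tested. Not all were tested in each setting. Without the wild-type libraries richest in pancreatic RNA 45 stayed called, 46 were tested and not called, and the rest were not tested. Of the 116 genes 49 stayed called with males averaged, 31 without female 2, 3 with males alone and 69 as labelled. Depth limits what can be said of genes near 0 FPKM, which rest on few fragments.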

Other observations

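A few gene families outside the lists were picked after their values were seen, so that their counts support nothing. Metallothioneins, metal-binding proteins induced by zinc and stress hormones, were lower in all 3 tested members. Mt1 was 60.5, 81.7 and 54.3 FPKM in the Ret-lacking libraries, 57.1, 81.1 and 93.0 FPKM in the Ret-holding null-labelled libraries, and 104 to 445 FPKM (median 183) in wild type. Alpha-defensins, antimicrobial peptides of Paneth cells, were lower in all 3 tested members, near-identical copies whose reads can be shared. Defa24 was 0, 0.591 and 0 FPKM in the Ret-lacking libraries, 0, 1.06 and 0.303 FPKM in the Ret-holding null-labelled libraries, and 1.13 to 6.38 FPKM (median 3.41) in wild type. Of 22 MHC class I and II genes 3 were lower and none higher. H2-K1, a class I heavy chain, was 8.82, 16.7 and 16.8 FPKM in the Ret-lacking libraries, 16.1, 16.2 and 17.9 FPKM in the Ret-holding null-labelled libraries, and 22.5 to 41.7 FPKM (median 37.0) in wild type. With males 2 and 3 averaged, and likewise without female 2, no member of these 3 families passed in limma. At an unadjusted p under 0.05, 3 metallothionein, 3 alpha-defensin and 10 MHC genes did with males averaged, and 1, 3 and 4 of them did without female 2. In these genes the Ret-holding null-labelled libraries lay nearer to the Ret-lacking libraries than to wild type.

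Hox genes, which pattern the gut along its length, were mostly not called: of 33 tested 2 were higher (Hoxc5 and Hoxa2) and 2 lower (Hoxb5 and Hoxd3). Hoxb5, which enteric crest cells express, was 8.39, 9.06 and 7.38 FPKM in the Ret-lacking libraries, 19.9, 18.0 and 21.99 FPKM in the Ret-holding null-labelled libraries, and 14.4 to 20.1 FPKM (median 16.2) in wild type. Hoxd3 was 1.12, 3.50 and 3.39 FPKM in the Ret-lacking libraries, 13.1, 12.1 and 13.5 FPKM in the Ret-holding null-labelled libraries, and 4.52 to 12.97 FPKM (median 10.1) in wild type. For both genes the Ret-holding null-labelled libraries lay within or above the wild-type range.

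All 10 entries of Rn4.5s, a small RNA repeat, were lower, with summed levels of 13.6 to 62.3 FPKM in the Ret-lacking libraries, 28.9 to 114 FPKM in the Ret-holding null-labelled libraries and 76.2 to 141 FPKM in wild type. The entries are copies of 1 sequence, so they count as 1 observation, and small RNAs without a poly(A) tail are not measured reliably in these libraries.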
